A study of Homo sapiens with 8 samples.

Results

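The Wnt and β-catenin pathway was followed through 40 of its genes, out of 54261 genes in the table, in 8 sequencing libraries of human intestinal cell lines. The genes were taken by symbol, and comprised β-catenin itself, the proteins that break it down, the factors that carry it to DNA, receptors and ligands, inhibitors, and genes that the pathway is known to switch on. The rule used symbols and no measured value, but the genes were chosen with earlier results of these data known. All 40 symbols were found, 36 of them with at least 10 counts in at least 1 library. SFRP1, SFRP2, WIF1 and OLFM4 stayed below that in all 8.

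Total RNA depleted of ribosomal RNA was sequenced from 5 untreated lines, each as 1 library. NCM460 and HIEC6 (HIEC-6) are labelled as normal intestinal epithelium (n = 2), and DLD1, HCT116 and HCT8 are colorectal carcinoma (CRC) lines (n = 3). A second library of each CRC line came from cells under hypoxia (n = 3), whose oxygen level and duration are not given in the sources used here. According to the study's methods DLD1 and HCT8 carry mutant APC. HCT116 is known to carry a stabilising mutation of CTNNB1, the gene of β-catenin, with APC intact. Cell line registries list DLD1 and HCT8 as derived from the same donor, so the 4 APC-mutant libraries may stand for 1 tumor, and the 2 HCT116 libraries stand for 1 line. The mutated gene and the line can therefore not be told apart in any comparison below. A level is given as CPM (the count over the library total, times 1e6), and levels are compared between genes only per kilobase of exon (RPKM).

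Library totals lay between 45519306 and 57374239 counts, so that 1 count was worth 0.0174 to 0.022 CPM. The library labelled NCM460 stood apart from its label's group. Its correlation with untreated HCT116 was 0.994 over all genes on the log scale and 0.989 over the 40 genes, against 0.924 and 0.755 with HIEC6. Genes are not replicates, and these values describe the libraries. HIEC6 had 10 counts of EPCAM and 172 of CDH1, which mark epithelium, and 3 of CDX2, the intestinal factor, but 243272 of the keratin KRT8 and 69375 of VIM, a mesenchymal marker. The 12 hypoxia response genes had a median of 17.7 to 22.9 CPM in the untreated CRC lines and 121 to 310 CPM in the hypoxia libraries, which went with the labels. A second run label stood on NCM460, on hypoxic DLD1 and on hypoxic HCT116, whose summed level of 13 fibroblast markers was 111, 99.7 and 183 CPM, against 12.7 to 46.4 CPM in the other 4 libraries of colorectal lines and 1419 CPM in HIEC6. VIM made up most of the HIEC6 sum, with COL1A2 at 26 counts and POSTN at 1, and the median marker was at 1.16 CPM there, below the 1.88 to 5.04 CPM of the 3 libraries with the second run label.

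In cells without a Wnt signal, a complex built on APC and AXIN1 lets GSK3B and casein kinase mark β-catenin for destruction. A Wnt ligand bound to Frizzled and LRP receptors stops this complex, and β-catenin then enters the nucleus and joins TCF and LEF factors to switch on target genes, some of which (AXIN2, RNF43, ZNRF3, NKD1, NOTUM, DKK1) restrain the pathway in turn. In the intestine the pathway maintains the stem cells at the crypt base, which are marked by LGR5 and ASCL2. Nearly all colorectal tumors carry a lesion that leaves it switched on, most often in APC and less often in CTNNB1.

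**Figure D1:**
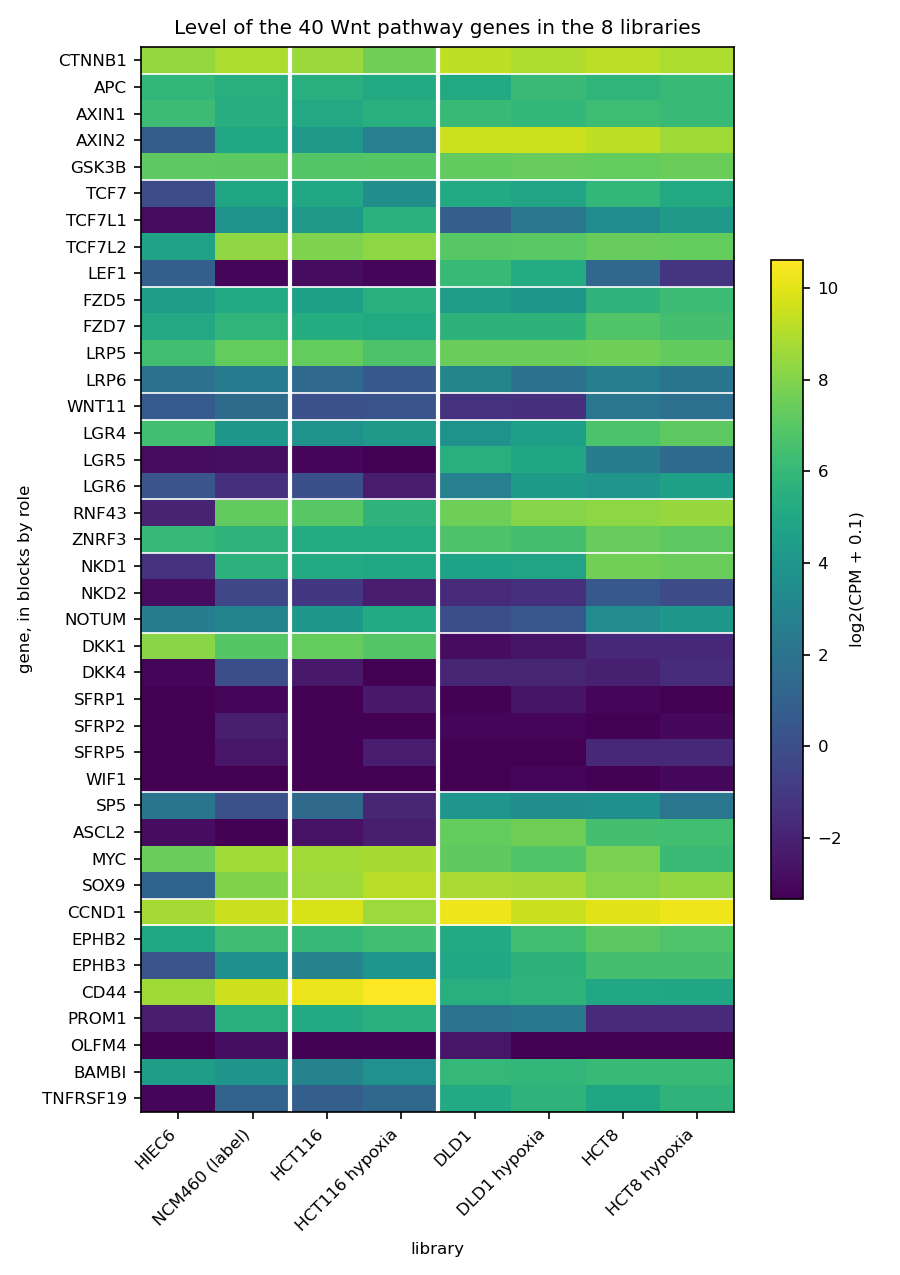
Level of the 40 genes (rows, in blocks by role) in the 8 libraries (columns), as log2(CPM + 0.1) by color. AXIN2, ASCL2 and LGR5 are bright in the 4 libraries of DLD1 and HCT8 and darker in the other 4, and DKK1 and CD44 show the opposite.

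The first question was how the pathway's genes differed between the line with mutant CTNNB1 and the lines with mutant APC. HCT116 had far less of several target genes than DLD1 and HCT8, among them the crypt stem cell genes LGR5 and ASCL2 and the feedback gene AXIN2. It had far more of DKK1, a secreted inhibitor, and of CD44, a surface glycoprotein. DKK1 and CD44 also count as targets, so the targets went both ways. Of the 40 genes, 35 reached 10 counts in 2 or more of the 6 CRC libraries and were tested, and 10 of them passed an adjusted p-value of 0.05 (edgeR's quasi-likelihood test with treatment as a covariate, Benjamini-Hochberg adjustment over all 21045 genes tested). Over all genes tested 8.35% passed. Higher in HCT116 were 4 of the 35 (4.87% of all genes), and lower were 6 (3.49% of all genes). The median log2 fold change was −0.72 over the 35 genes and −0.09 over all genes. ASCL2, LEF1, LGR5 and DKK4 passed the filter through DLD1 and HCT8 alone, having fewer than 10 counts in both HCT116 libraries, so for them the filter itself required a difference, and the count and the median are given as a description. ASCL2 and LGR5 are among the 6 lower genes. The other 8 genes that passed, 4 in each direction, had at least 10 counts in a library of each group. For DKK1 that was untreated HCT8 alone, with 10 counts. As the filter asked for 2 libraries, DKK1 could not have passed it without HCT116 and shares the limit of ASCL2 and LGR5. With library totals in place of TMM scaling the median of all genes moved to −0.38, and of the genes called 772 were higher and 913 lower, against 1024 and 734.

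Of β-catenin and the proteins that break it down, AXIN2 passed the test. CTNNB1, the pathway's central protein, was at 369 and 195 CPM in untreated and hypoxic HCT116, 620 and 502 in DLD1 and 588 and 484 in HCT8. Both HCT116 libraries were below the other 4, but the log2 fold change of −0.73 did not pass (SE 0.22, adjusted p = 0.0973). CTNNB1 passed when each line had its own term, with the spread taken only within lines (adjusted p = 0.0189). APC, the scaffold whose gene is mutant in DLD1 and HCT8, ranged from 35.0 CPM (HCT116 under hypoxia) to 71.5 CPM (DLD1 under hypoxia), and the groups overlapped. AXIN1, the other scaffold, ranged from 34.2 to 79.3 CPM and GSK3B, the kinase, from 117 to 180 CPM, with both HCT116 libraries lowest in each. Their log2 fold changes were −0.20 (APC), −0.45 (AXIN1) and −0.16 (GSK3B), and none of them passed.

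AXIN2 is a scaffold like AXIN1 and a direct target of the pathway, used as its readout. It lies on the minus strand of chromosome 17 from 63524681 to 63557766 (ENSG00000168646, GRCh37). In HCT116 it was at 17.6 CPM untreated and 6.72 under hypoxia. In DLD1 it was at 748 and 761 CPM, and in HCT8 at 620 and 388 CPM. The groups did not overlap, and the log2 fold change was −5.55 (SE 0.54, adjusted p = 0.00546). Per kilobase of exon, AXIN2 was second only to CCND1 among the 40 genes in untreated DLD1 (144 RPKM) and untreated HCT8 (119 RPKM), and was not among the first 5 in HCT116.

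The TCF and LEF factors, which tether β-catenin to DNA, did not move as a block. TCF7L2, the main one of the adult intestine (chromosome 10, 114710006 to 114927437, plus strand), was at 241 and 307 CPM in HCT116, 126 and 131 in DLD1 and 166 and 158 in HCT8. It was higher in HCT116 by 1.22 on the log2 scale (SE 0.24, adjusted p = 0.0362), with no overlap. LEF1 went the other way, with 2 and 1 counts in HCT116 against 3366 and 2218 in DLD1 and 128 and 15 in HCT8. Its level was 994 times as high in the 4 libraries as in HCT116 (exact 95% interval 339.9 to 4820, counting error only), yet it did not pass (adjusted p = 0.114), and DLD1 itself was 35.3 times above HCT8 (29.9 to 42.0). TCF7L1, mostly a repressor, was at 17.6 and 46.8 CPM in HCT116, 1.80 and 4.41 in DLD1 and 10.9 and 18.4 in HCT8, so that the ranges overlapped, and TCF7 ranged from 11.8 to 60.4 CPM. Neither of the 2 passed (log2 fold change 2.12, adjusted p = 0.158, and −0.72, adjusted p = 0.177).

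Of the receptors, LGR5 was close to absent from HCT116. LGR4, LGR5 and LGR6 bind R-spondins, which strengthen a Wnt signal, and LGR5 marks crypt stem cells (chromosome 12, 71833578 to 71980090, plus strand). LGR5 had 1 count in untreated HCT116 and 0 under hypoxia, 2174 and 1676 counts in DLD1, and 311 and 128 in HCT8. The 4 libraries were 2233 times above HCT116 (exact 95% interval 401 to 88210), which is a description. Its fitted log2 fold change of −10.64 (SE 2.16, adjusted p = 0.0411) rests on a prior count and is no bound, and since LGR5 passed the filter only through DLD1 and HCT8, the p-value adds no support. DLD1 was 7.93 times above HCT8 (7.18 to 8.77, counting error only). LGR6 had 49 and 6 counts in HCT116 and 341 to 1139 in the other 4 (log2 fold change −4.77, SE 1.12, adjusted p = 0.0594). LGR4 was led by HCT8, at 103 and 143 CPM, while HCT116 and DLD1 lay between 14.3 and 23.4 CPM.

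The Wnt receptors FZD5, FZD7, LRP5 and LRP6 did not pass, with log2 fold changes from −1.21 (LRP6) to 0.01 (FZD5), and the ligand WNT11 was below 5 CPM in all 8 libraries. RNF43 and ZNRF3 are membrane ubiquitin ligases that remove Frizzled from the cell surface, and they are what R-spondins act against. ZNRF3 (chromosome 22, 29279560 to 29453476, plus strand) was at 37.5 and 37.3 CPM in HCT116, 105 and 91.0 in DLD1 and 169 and 142 in HCT8. It was lower in HCT116 (log2 fold change −1.43, SE 0.30, adjusted p = 0.0451) without overlap. RNF43 was at 129 and 53.4 CPM in HCT116 and at 186 to 354 CPM in the others. Its log2 fold change of −1.37 did not pass (SE 0.39, adjusted p = 0.0894).

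The inhibitors showed no common direction. DKK1 blocks LRP receptors from outside the cell (chromosome 10, 54074041 to 54077802, plus strand). It had 8248 and 6514 counts in HCT116, 2 and 4 in DLD1, and 10 and 9 in HCT8. HCT116 was 1134 times above the other 4 (exact 95% interval 768 to 1753), the gene with the highest log2 fold change of the 35 (10.41, SE 0.57, adjusted p = 0.00241). Of the other 4 libraries only untreated HCT8 reached 10 counts. DKK1 thus passed the filter through HCT116, and the p-value adds no support. At 71.1 RPKM DKK1 was the fourth highest of the 40 genes in untreated HCT116. The feedback inhibitors split the APC-mutant lines. NKD1, which binds Dishevelled, was at 198 and 175 CPM in HCT8 against 26.6 to 37.1 CPM in DLD1 and HCT116. NOTUM, an enzyme that strips the lipid from Wnt ligands, was at 16.9 and 36.5 CPM in HCT116, 0.918 and 1.27 in DLD1 and 10.4 and 17.1 in HCT8. Neither of them passed (NOTUM log2 fold change 2.16, SE 1.13, adjusted p = 0.281). NKD2 and DKK4 stayed under 1.4 CPM and did not pass. The other secreted antagonists SFRP1, SFRP2, SFRP5 and WIF1 had at most 11 counts in any library, near the floor of 3 counts (0.0523 to 0.0659 CPM), and a difference in these 4 was not detectable at this depth.

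The transcription factors among the targets split. ASCL2, which drives the crypt stem cell program (chromosome 11, 2289728 to 2291818, minus strand), had 3 and 7 counts in HCT116, 8050 and 11256 in DLD1, and 4729 and 3764 in HCT8. The 4 libraries were 1447 times above HCT116 (exact 95% interval 787 to 3018), with the same limit from the filter on its fitted log2 fold change of −10.18 (SE 0.87, adjusted p = 0.00403) as for LGR5. MYC, the growth regulator (chromosome 8, 128747680 to 128755197, plus strand), was the reverse, at 414 and 439 CPM in HCT116, 145 and 115 in DLD1, and 226 and 72.1 in HCT8. It was higher in HCT116 (log2 fold change 2.04, SE 0.41, adjusted p = 0.0403). SOX9, a factor of crypt and Paneth cells, was high in all 6 libraries, between 274 and 549 CPM, and did not pass. SP5, a direct β-catenin target that represses other targets, had 142 and 10 counts in HCT116, 791 and 649 in DLD1, and 658 and 198 in HCT8. Both HCT116 libraries were below the rest, but the log2 fold change of −3.34 did not pass (SE 0.94, adjusted p = 0.0884).

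**Figure D2:**
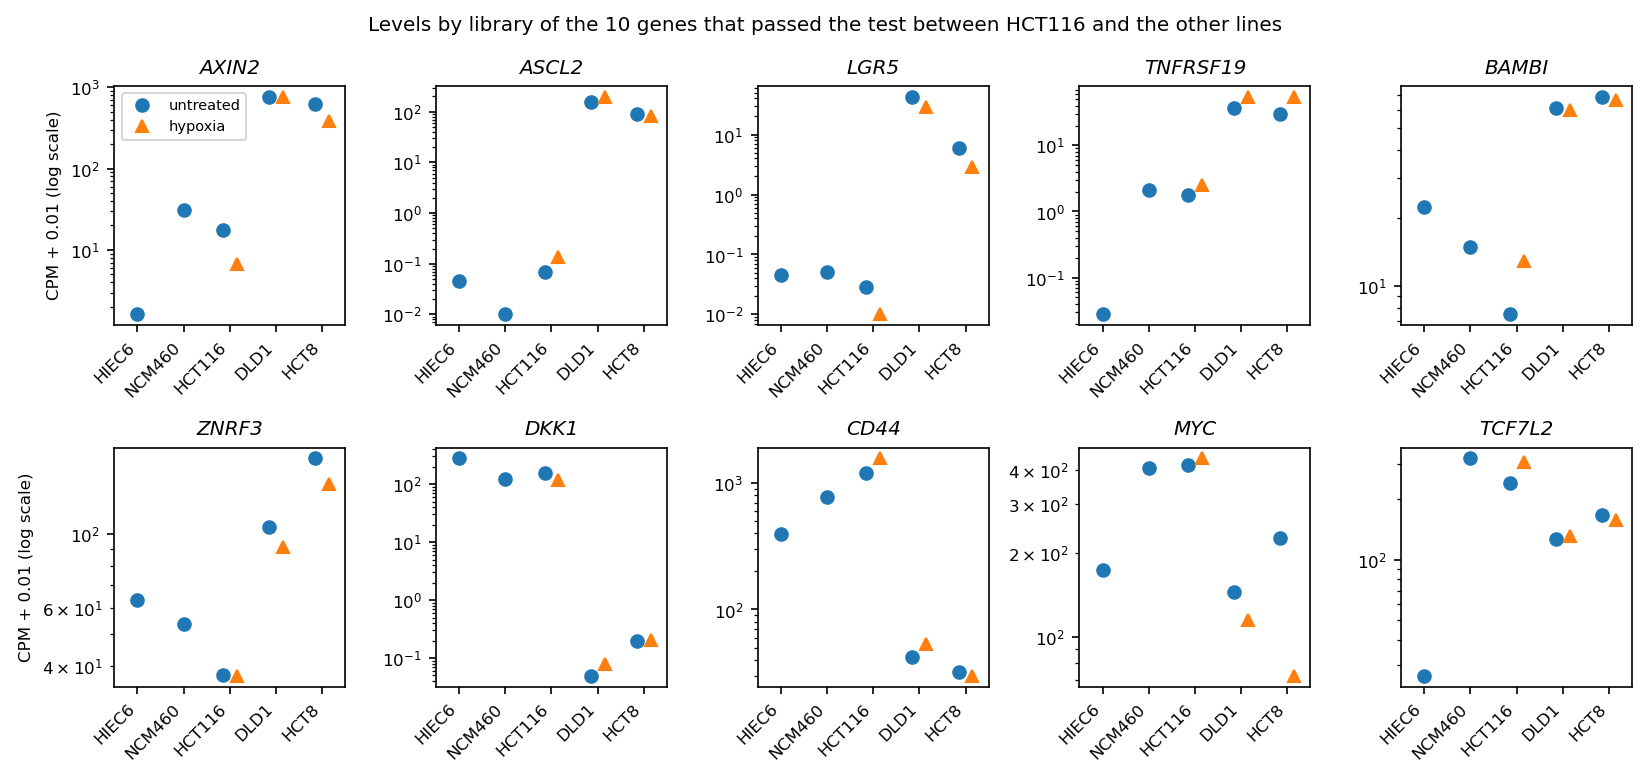
CPM + 0.01 (log axis, its range set per panel) of the 10 genes that passed, 1 point per library, circles untreated and triangles hypoxia. In every panel both HCT116 points lie on one side of the 4 DLD1 and HCT8 points, from at most 17.6 against at least 388 CPM for AXIN2 to at least 241 against at most 166 CPM for TCF7L2.

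Of the other targets, CD44 was higher in HCT116 and BAMBI and TNFRSF19 were lower. CD44, a hyaluronan receptor (chromosome 11, 35160429 to 35253949, plus strand), was at 1199 and 1565 CPM in HCT116, 42.1 and 53.6 in DLD1, and 31.9 and 29.8 in HCT8, with a log2 fold change of 5.41 (SE 0.37, adjusted p = 0.00329). TNFRSF19, a receptor also called TROY and found on crypt stem cells (chromosome 13, 24144509 to 24250243, plus strand), was at 1.74 and 2.53 CPM in HCT116, 36.3 and 54.3 in DLD1, and 30.4 and 53.6 in HCT8. Its log2 fold change was −4.04 (SE 0.31, adjusted p = 0.00366), and DLD1 and HCT8 nearly coincided. BAMBI, a pseudoreceptor of the TGF-β family (chromosome 10, 28966439 to 28971861, plus strand), was at 7.48 and 12.9 CPM in HCT116 and 59.9 to 68.6 CPM in the other 4, with a log2 fold change of −2.37 (SE 0.35, adjusted p = 0.0179). PROM1, the CD133 antigen, was at 36.3 and 43.1 CPM in HCT116, 3.81 and 4.90 in DLD1, and 0.228 and 0.220 in HCT8. HCT116 was highest there too, but the gap between DLD1 and HCT8 was wide, and the log2 fold change of 4.35 did not pass (SE 1.36, adjusted p = 0.11). CCND1, the cyclin of the G1 phase, had the highest level of the 40 genes per kilobase of exon in 6 of the 8 libraries, and ranged from 379 to 1215 CPM in the 6 CRC libraries without passing. The receptors of ephrins differed between them, EPHB3 at 7.29 and 15.7 CPM in HCT116 and 32.2 to 91.2 in the others (log2 fold change −2.26, adjusted p = 0.0651) and EPHB2 with a log2 fold change of 0.0006. OLFM4, a crypt stem cell marker, had at most 4 counts in any library.

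**Figure D3:**
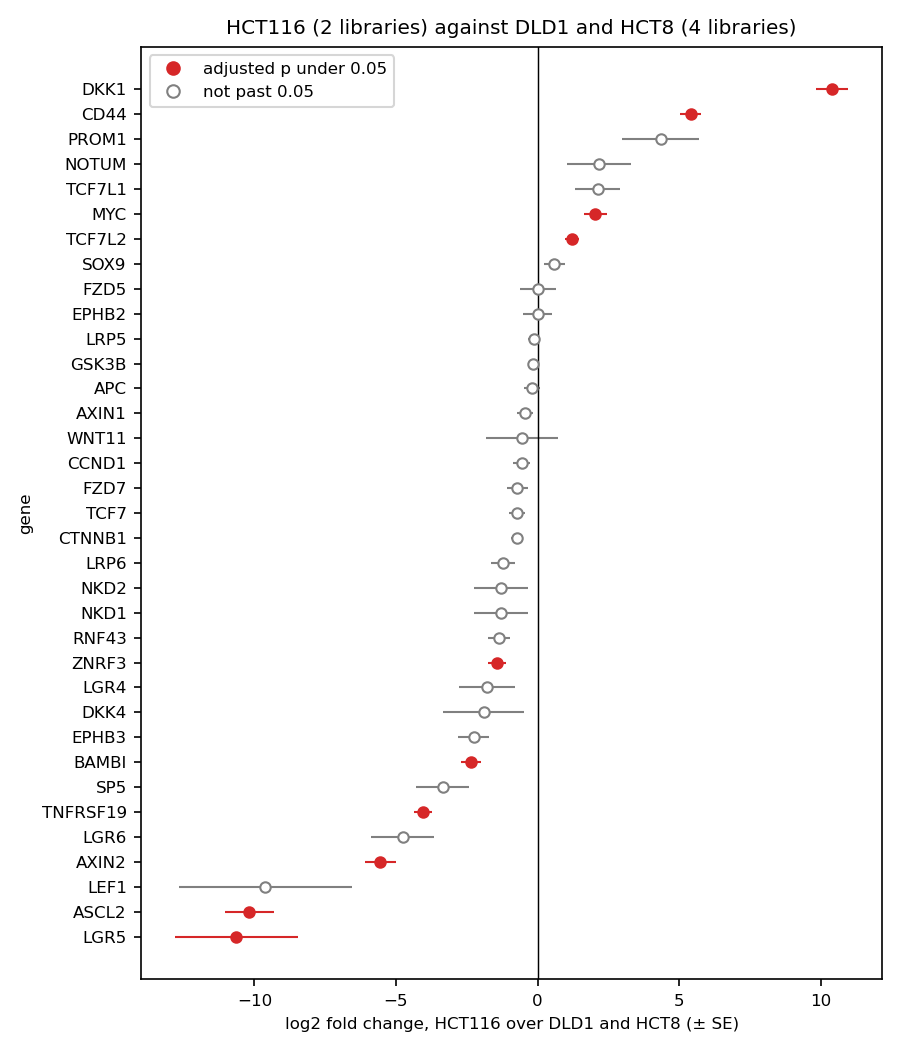
Log2 fold change of HCT116 (2 libraries) over DLD1 and HCT8 (4 libraries) for the 35 genes tested, with bars of ± SE. The filled points are the 10 with an adjusted p-value under 0.05, from −10.64 (LGR5) to 10.41 (DKK1), and the fitted values of LGR5, LEF1 and ASCL2 depend on a prior count.

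Without a test, both HCT116 libraries lay below all 4 of DLD1 and HCT8 in 17 of the 35 genes (25.4% of all genes) and above them in 5 (14.1% of all genes). The 10 genes that passed were all among these 22. ASCL2, LEF1, LGR5 and DKK4 among the 17, and DKK1 among the 5, passed the filter through the group where they were high. DKK4 rests on 5 and 0 counts in HCT116 against 7 to 11 in the other libraries. The tally is therefore a description. When each line had its own term in the fit, so that the spread was taken only within lines, 24 of the 35 genes passed, where 32.8% of all genes did. These were the 10 above and 14 more: LEF1 (adjusted p = 9.69e-05), PROM1 (adjusted p = 3.69e-06), CTNNB1, EPHB3, FZD7, LGR4, LGR6, LRP6, NKD1, NOTUM, RNF43, SP5, TCF7 and TCF7L1. LEF1, ASCL2 and LGR5 passed the filter through DLD1 and HCT8 alone, and DKK1 needed HCT116, so their p-values add no support. The p-values of this fit take the untreated and hypoxic libraries of a line as replicates. They do not measure the spread between lines. The main fit, too, counts both libraries of a line as separate replicates. With HCT116 as the only line of its kind, the p-values of the main fit cannot measure how such lines vary. The call on the 10 genes needed both HCT116 libraries and was lost when either was left out. Such a fit cannot measure the spread within HCT116, so only effect sizes are given. Without untreated HCT116 the median log2 fold change was −0.85 over the 35 genes and −0.17 over all genes. Without HCT116 under hypoxia it was −0.76 over the 35 genes and −0.08 over all genes. The summed level of the 11 epithelial markers was also lower in HCT116, at 4551 and 5561 CPM against 8562 to 14076 CPM in the other 4, with VIL1 at 2 and 13 counts against 411 to 19353. The keratins KRT8 and KRT18 made up most of these sums. KRT19 was not lower, at 855 CPM in untreated HCT116 against 738 in DLD1 and 781 in HCT8. Under hypoxia it was at 2075 CPM in HCT116, between 1907 in DLD1 and 2392 in HCT8. The part of such differentiation markers in the results above was not tested. In bulk libraries, fewer cells with a transcript and less of it per cell cannot be told apart.

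The promoter sequence of SP5 and DKK1 is shown because these windows carry the letters of the TCF/LEF core, while the levels of the 2 genes in HCT116 lay on opposite sides of the other lines. The windows run from 250 bases before to 50 bases after the RefSeq start site, on the strand of the gene, and the capitals mark CTTTGAT or CTTTGAA on either strand. The SP5 window is chr2:170715087-170715386 and the DKK1 window is chr10:52314031-52314330, both on the plus strand of GRCh38.p14.
SP5: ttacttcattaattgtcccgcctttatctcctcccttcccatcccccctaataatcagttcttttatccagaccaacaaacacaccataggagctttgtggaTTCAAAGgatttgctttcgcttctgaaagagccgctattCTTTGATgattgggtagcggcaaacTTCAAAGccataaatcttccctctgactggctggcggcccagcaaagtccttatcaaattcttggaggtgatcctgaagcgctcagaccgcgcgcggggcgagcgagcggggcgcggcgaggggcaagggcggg
DKK1: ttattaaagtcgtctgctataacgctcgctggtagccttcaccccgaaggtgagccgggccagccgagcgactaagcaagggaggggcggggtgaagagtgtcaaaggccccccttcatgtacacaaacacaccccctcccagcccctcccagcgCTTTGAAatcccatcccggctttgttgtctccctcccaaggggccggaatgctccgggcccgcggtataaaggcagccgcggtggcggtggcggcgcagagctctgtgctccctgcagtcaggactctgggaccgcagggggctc
Counted from the start site, SP5 holds 3 matches, CTTTGAA on the opposite strand from −148 to −142 and from −84 to −78, and CTTTGAT on the gene's own strand from −109 to −103. DKK1 holds 1 match of CTTTGAA, from −95 to −89 on its own strand. Of the 40 genes 26 had an entry, with 38 windows in all, and 3 windows (7.89%) held a match, the third belonging to 1 of the 4 starts of PROM1. Over all 35116 windows of the table the share was 6.86%, so the genes were near the background. A match is a description of letters and no binding was measured. AXIN2, FZD7, LRP6, WNT11, LGR5, ZNRF3, NKD1, NOTUM, DKK4, SFRP1, ASCL2, MYC, SOX9 and CCND1 had no entry.

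A wider list of 83 further pathway genes was read in the same fit. Of the 73 tested, 9 were higher in HCT116 and 7 lower, where 4.87% and 3.49% of all genes were. Of these, WNT3A, WNT7A and PYGO1 had fewer than 10 counts in all 4 libraries of DLD1 and HCT8, and APCDD1, PROX1, TDGF1 and TLE4 in both of HCT116, so these 7 passed the filter only through the group where they were high and are given as a description. FRZB reached 10 counts in hypoxic DLD1 alone of the 4, and so also needed HCT116 to pass the filter. WNT16 was at or below 10 counts in all 4. The calls on FRZB and WNT16 are likewise a description. Higher were 3 ligands. WNT16 had 3756 and 9862 counts in HCT116 and 0 to 10 in the other 4 (adjusted p = 0.00522), WNT3A had 333 and 195 against 0 in all 4, at least 338-fold higher against a floor of 3 counts over the group (adjusted p = 0.0305), and WNT7A had 65 and 75 against 0 to 2 (adjusted p = 0.0189). The others were the Wnt5a receptor ROR2 (log2 fold change 6.80), the secreted antagonist FRZB (5.10), the cofactors PYGO1 (5.37) and BCL9 (1.12), the target TIAM1 (2.27) and DVL1 (1.25), which relays the receptor signal. Lower were the corepressor TLE4, with 1 and 4 counts against 1486 to 3288 (adjusted p = 0.00403), the inhibitor APCDD1, with 1 and 0 against 125 to 1521 (adjusted p = 0.0408), and PROX1, with 0 in both HCT116 libraries against 160 to 488 (adjusted p = 0.0178). The ligand WNT5B (−5.02), the Nodal coreceptor TDGF1 (−8.25), CEMIP (−2.89) and ID2 (−1.58) were lower too, the fitted value of TDGF1 resting on 0 and 1 counts in HCT116. The levels of the Wnt ligands WNT3A and WNT16 in the library labelled NCM460, at 440 and 8463 counts, were on the side of HCT116, while HIEC6 had 0 counts of both.

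DLD1 and HCT8, which share the APC class, were not alike throughout. Of 35 genes with at least 10 counts in either untreated library, 3 were over 2-fold higher in DLD1 and 13 over 2-fold higher in HCT8 (45.7% together, against 29.3% of all genes). This is 1 library against 1, with no test. DLD1 was above in LEF1, LGR5 and PROM1. In WNT11, NOTUM, NKD1, LGR4, TCF7L1 and NKD2 the log2 difference, DLD1 minus HCT8, was −3.81 to −2.50, and the same 6 genes were higher in HCT8 in the hypoxia libraries too. On the other hand AXIN2, CTNNB1, GSK3B, BAMBI and TNFRSF19 differed by at most 0.27 on the log2 scale between untreated DLD1 and HCT8. In the hypoxia libraries this did not hold for AXIN2, at 761 CPM in DLD1 and 388 CPM in HCT8.

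The second question was whether hypoxia moved the pathway. No gene of the 35 passed in the comparison of 3 hypoxia and 3 untreated libraries by edgeR (0 of 21045 genes, 0% called, with 607 at an unadjusted p-value under 0.05 and 0 of the 35 among them), nor by DESeq2 (0 of the 35, 0.261% of all genes). With the cell line as a replicate block, edgeR called 200 genes (0.95%) and again 0 of the 35. In that fit 11 of the 35 had an unadjusted p-value under 0.05, as did 3884 of all 21045 genes. DESeq2 with the same block called 7.92% of all genes and 7 of the 35, of which LGR4, NOTUM, TCF7L1 and TNFRSF19 were higher under hypoxia and LEF1, SP5 and TCF7 lower. That fit was added after the data had been seen. Of the 73 genes of the wider list 1 passed in the edgeR block fit, FRZB, which went from 1 to 14 counts in DLD1, from 16 to 284 in HCT116 and from 0 to 5 in HCT8 (adjusted p = 0.0377).

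The highest positive value in the block fit was that of TCF7L1, which was at 1.80, 17.6 and 10.9 CPM in untreated DLD1, HCT116 and HCT8 and at 4.41, 46.8 and 18.4 CPM under hypoxia. It had the same direction in the 3 lines, with a value of 1.29 on the log2 scale (SE 0.26, adjusted p = 0.0669 in the edgeR block fit, 0.000566 to 1 over the alternatives). NOTUM had values above 0 in each line too (0.93, SE 0.26, adjusted p = 0.131), as did TNFRSF19 (0.77, SE 0.19, adjusted p = 0.105). SP5 was lower in each line, from 791 to 649 counts in DLD1, 142 to 10 in HCT116 and 658 to 198 in HCT8 (−1.61, SE 0.52, adjusted p = 0.164). LEF1 went from 3366 to 2218 counts in DLD1 and from 128 to 15 in HCT8 (−1.53, SE 0.45, adjusted p = 0.141), and LGR5 had a log2 fold change of −0.80 (SE 0.31, adjusted p = 0.219). HCT116 had at most 2 counts of either gene. The direction was the same in the 3 lines in 6 of the 35 genes for higher and 8 for lower, against 16.2% and 26.4% of all genes. LEF1 and LGR5 are among the 8, although their counts in HCT116 were too few to give a direction.

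**Figure D4:**
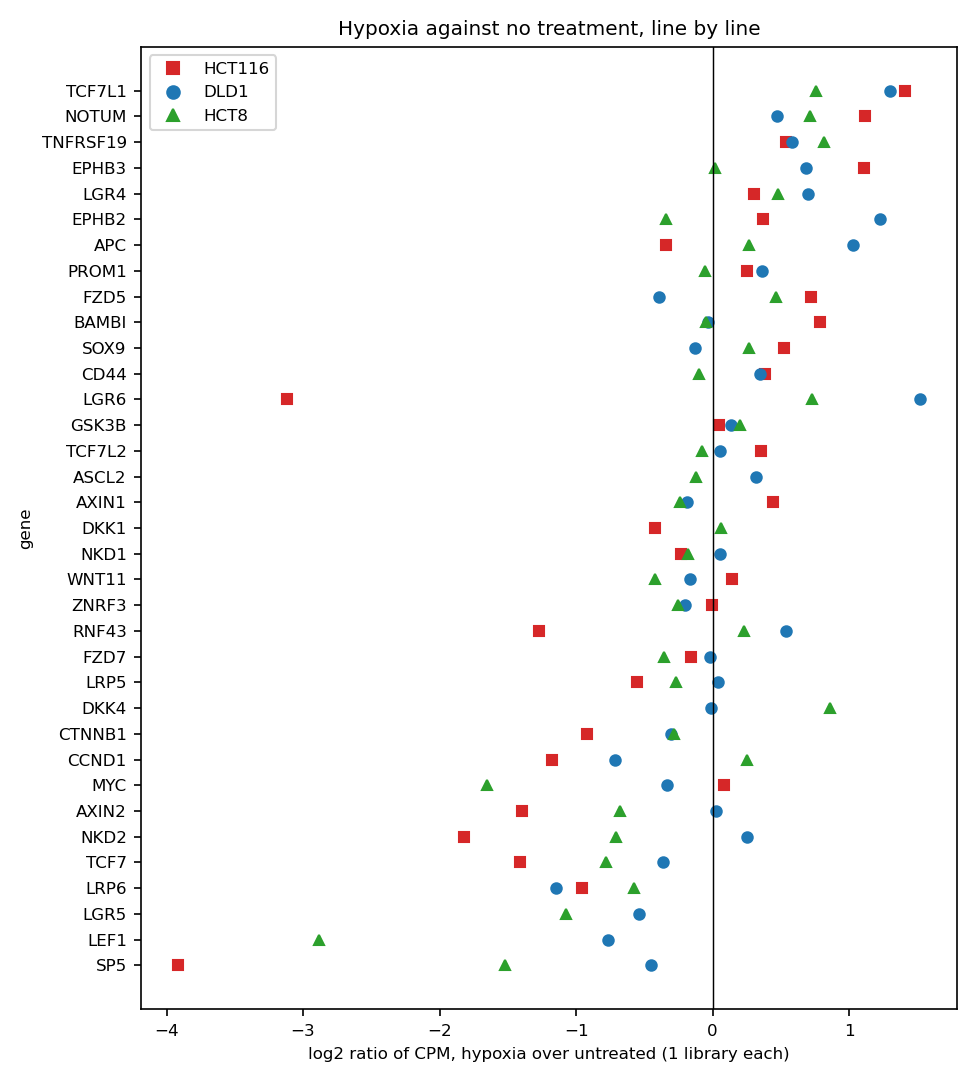
Log2 ratio of CPM, hypoxia over untreated, in HCT116 (squares), DLD1 (circles) and HCT8 (triangles), 1 library against 1, for the 35 genes in the order of the block fit, points with under 10 counts in both libraries left out. TCF7L1 lies to the right of 0 in all 3 lines, at 0.76 to 1.41, and SP5 to the left, at −0.45 to −3.91.

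The AXIN2 readout did not move one way, with CPM values of 748 and 761 in DLD1, 17.6 and 6.72 in HCT116 and 620 and 388 in HCT8, untreated first. RNF43 was lower under hypoxia in HCT116 (129 to 53.4 CPM) and higher in DLD1 (186 to 270 CPM) and HCT8 (302 to 354 CPM). MYC was lower in HCT8 (226 to 72.1 CPM) and its log2 ratio was −0.33 in DLD1 and 0.08 in HCT116. The difference in response between HCT116 and the APC-mutant lines was tested as an interaction, in which 0 of 21045 genes passed by edgeR (0% called, 480 at an unadjusted p-value under 0.05, of them 2 of the 35) and 0.0333% by DESeq2, with 0 of the 35. The lowest interaction values were those of DKK4 (−5.81, SE 2.42), LGR6 (−3.79, SE 0.98) and SP5 (−2.76, SE 1.22), and the highest those of MYC (1.37, SE 0.68), ASCL2 (1.25, SE 1.44) and EPHB3 (1.21, SE 0.96), each with an adjusted p of 1. DKK4 had at most 11 counts in these libraries. Run and treatment cannot be told apart, since no run label was common to the untreated and the hypoxia libraries of the CRC lines, and hypoxic DLD1 and HCT116 carried the higher summed level of fibroblast markers given above, whose part in these values was not tested.

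The third question was how the normal lines compared. HIEC6 had very little of several of the pathway's genes that all 3 CRC lines expressed, and HIEC6 and the library labelled NCM460 did not resemble each other in them. RNF43 had 9 counts in HIEC6 and 9504, 6747 and 15881 in untreated DLD1, HCT116 and HCT8, a ratio of 1297 (exact 95% interval 683 to 2837, counting error only). TNFRSF19 had 1 count against 91 to 1858 (ratio of the sums 1290, 231 to 50950), and SOX9 stood at 2.15 CPM against 274 to 464. AXIN2 was at 1.60 CPM in HIEC6 against 17.6 in HCT116, the lowest CRC line. NKD1 was at 0.317 CPM against 26.6 to 198, and TCF7L1 had 2 counts against 92 to 921. DKK1 was the reverse, at 278 CPM in HIEC6 against 158 in HCT116 and under 0.2 in DLD1 and HCT8, and per kilobase of exon was the highest of the 40 genes there (125 RPKM).

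HIEC6 lay outside the range of the 3 untreated CRC lines in 20 of the 34 genes tested, below it in 18 (43.1% of all genes) and above it in 2, APC and DKK1 (22.7% of all genes). Some of these gaps were small. ASCL2 rests on 2 counts in HIEC6 against 3 in HCT116, and FZD5 on 21.4 CPM against 22.0 CPM in DLD1. APC, on the other side, rests on 58.7 CPM against 55.8 CPM in HCT8. In the test of this 1 library against 3, for which its spread is taken as that of the CRC lines, 0 of 18994 genes passed by edgeR (0% called, 2994 at an unadjusted p-value under 0.05, of them 9 of the 34). DESeq2 called 22.1% of all genes and 13 of the 34, all 13 lower in HIEC6, among them SOX9, AXIN2 and NKD1. The filter had a part in that direction: a gene present in HIEC6 alone could not reach 10 counts in 2 libraries, and 5 of the 13 (ASCL2, PROM1, RNF43, TCF7L1 and TNFRSF19) had under 10 counts in HIEC6. With all 6 CRC libraries in the fit 0.595% of genes passed, and 1 of the 35 tested there, SOX9. The lowest fitted log2 fold changes were those of ASCL2 (−10.82, adjusted p = 0.41, with 2 counts in HIEC6), RNF43 (−10.03, SE 0.88, adjusted p = 0.132) and TNFRSF19 (−9.88, adjusted p = 0.269). The highest were those of DKK1 (2.58, SE 3.52, adjusted p = 0.731), LGR4 (1.30, SE 1.23, adjusted p = 0.623) and APC (0.65, SE 0.35, adjusted p = 0.428). The epithelial markers EPCAM, CDH1 and CDX2 were as low in HIEC6 as given above, and their part in these values was not tested.

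The library labelled NCM460 had the levels of HCT116 in most of the genes. Of 32 genes with at least 10 counts in either, 2 were over 2-fold higher than in untreated HCT116 (DKK4 and WNT11). Over 2-fold lower were 3 (LGR6, SP5 and NOTUM). Together these were 15.6% of the 32, against 14.3% of all genes. The median absolute log2 difference was 0.41 (0.32 over all genes). Between NCM460 and HIEC6 it was 1.31 (1.05 over all genes). ASCL2, LGR5 and LEF1 had 0, 2 and 1 counts in it, and CD44 was at 774 CPM, DKK1 at 122 CPM, RNF43 at 153 CPM and PROM1 at 44.1 CPM. AXIN2 was at 31.1 CPM, above HCT116 and far below DLD1 and HCT8.

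**Figure D5:**
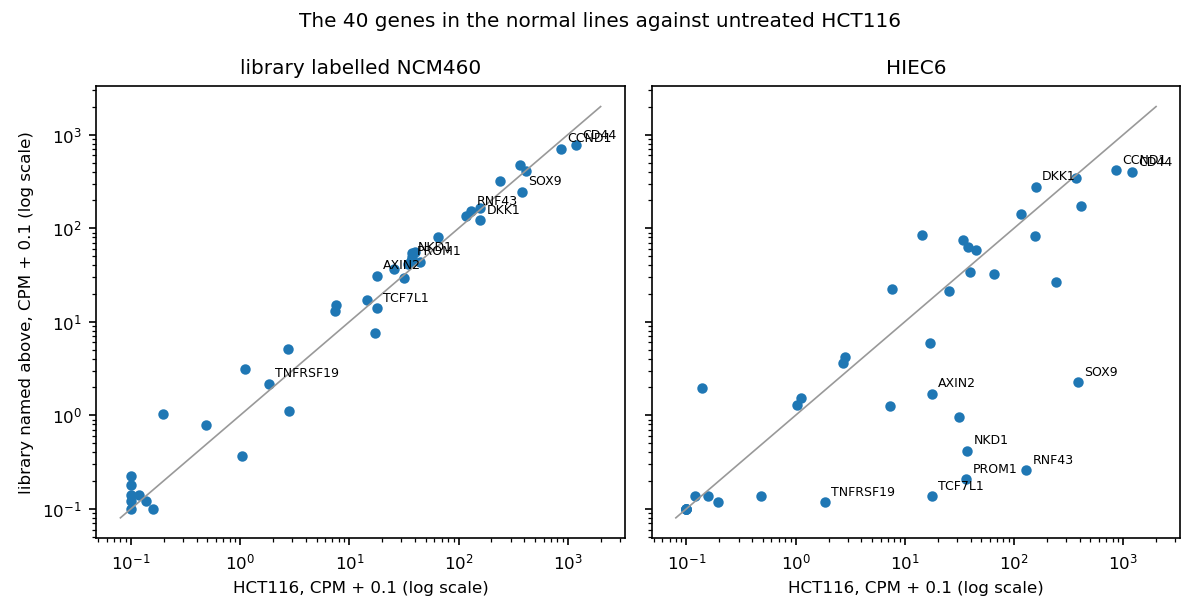
CPM + 0.1 of the 40 genes in the library labelled NCM460 (left) and in HIEC6 (right) against untreated HCT116, both axes logarithmic, 1 point per gene, with the line of equality. The NCM460 points follow the line (median absolute log2 difference 0.41), and SOX9, RNF43, NKD1, PROM1, TCF7L1 and TNFRSF19 lie far below it in HIEC6.

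Set as the study's groups, 3 untreated CRC lines against 2 normal lines, 0 of 19964 genes passed by edgeR (0% called, 542 at an unadjusted p-value under 0.05, of them 2 of the 34 tested). DESeq2 called 0.716% of all genes and 2 of the 34, ASCL2 and LGR5, both higher in the CRC group. Both were near 0 in HCT116 and in the 2 normal lines and passed the filter only through DLD1 and HCT8, so the call is a description. ASCL2, CCND1, SOX9 and TCF7 were higher in all 3 CRC libraries than in both normal ones (13.2% of all genes), which for ASCL2 rests on 3 counts in HCT116 against 0 in NCM460 and 2 in HIEC6, and for TCF7 on 31.3 CPM in HCT116 against 29.2 CPM in NCM460. By the same measure 0 of the 34 were lower in all 3 (4.99% of all genes). The highest log2 fold changes were those of ASCL2 (11.73, SE 3.78), LGR5 (8.48, SE 3.23) and AXIN2 (4.68, SE 2.06), and the lowest those of DKK1 (−2.07, SE 2.76), PROM1 (−0.75, SE 2.43) and CD44 (−0.56, SE 1.65), each with an adjusted p of 0.999. Without the library labelled NCM460 the value of PROM1 turned to 6.78 and that of AXIN2 moved to 7.87, which is the comparison with HIEC6 alone.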

How the data were processed

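Total RNA of 5 untreated lines and of 3 hypoxia cultures was sequenced once each. The authors deposited 1 table of raw read counts per gene (54261 genes, 8 libraries, 0 columns left aside). The study's methods name GRCh37.p13, while the submitters' processing notes name HISAT2 2.0.4 and GRCh38. The counter, its strand setting and the treatment of reads with several matches are not given in the sources used here, so antisense and overlapping genes cannot be separated. No molecular identifiers were described, and intervals cover counting error only.

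Groups came from the sample labels. Counts were tested with edgeR 4.0.16 (glmQLFit, glmQLFTest, TMM) in R 4.3.3, keeping genes that reached 10 counts in 2 or more libraries of a fit, with Benjamini-Hochberg adjustment at 0.05, and DESeq2 1.42.0 as an alternative. The standard error was taken from the log2 fold change and the F statistic. The procedure was tested on simulated counts with known changes. RPKM used exon unions of GENCODE 44 on GRCh37, which also gave positions, and promoter windows came from RefSeq (GRCh38.p14). Exact 95% intervals of ratios used SciPy 1.17.1. Replicates of a group are different lines or single libraries of a line, so p-values measure the spread between these libraries.

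For hypoxia, libraries with the same label number come from the same line and are thus paired. Deviations from the group means correlated at 0.865 to 0.873 between libraries of the same line and at −0.62 to −0.0979 between lines. Normal and CRC lines with the same number are different lines and unpaired. The 40 genes and the wider lists were chosen with earlier results of these data known. Genes named with statistics are those past the threshold in a fit and the 3 with the highest and the 3 with the lowest log2 fold change of each comparison. The alternatives were other scalings, filters, libraries left out, terms of the fit and DESeq2. The text names those added after seeing the data.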

Additional observations from a re-analysis of the deposited data

Results flagged for a closer look

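The response of LGR6, an R-spondin receptor, to hypoxia differed between HCT116 and the APC-mutant lines in 1 of the fits. LGR6 went from 49 to 6 counts in HCT116, from 341 to 1094 in DLD1 and from 796 to 1139 in HCT8. The interaction was −3.88 on the log2 scale (adjusted p = 0.0414) with each line given its own term, a fit added after seeing the data, in which 1 of the 35 genes and 196 of all genes passed. In the planned fit it was −3.79 with an adjusted p of 1, and it lay between −4.10 and −3.75 over the alternatives. It rests on 1 library per line and treatment and on 6 counts in HCT116 under hypoxia.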

How the results depend on the processing

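In HCT116 against DLD1 and HCT8 the 10 genes called kept their direction under all 15 to 17 alternatives each could be fitted with, and passed in 7 (ZNRF3) to 13 (AXIN2, BAMBI, CD44, TNFRSF19) of them. For ASCL2, LGR5 and DKK1, which passed the filter through the group where they were high, direction and passes add no support. The count of genes called, 1758 in all and 10 of the 40, became 5022 and 19 with DESeq2, 2991 and 17 with a filter of 1 count in 1 library, 853 and 6 with 10 counts in every library, and 6911 and 24 with a term for each line. It was 0 and 0 in the untreated libraries alone (1855 genes at an unadjusted p under 0.05) and in the hypoxia libraries alone (2535). Leaving out 1 library gave 0 to 1138 genes and 0 to 8 of the 40, the 0 without either HCT116 library, and leaving out both libraries of a line, added after seeing the data, gave 5215 and 23 without DLD1 and 5103 and 17 without HCT8.

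For hypoxia, 0 genes became 55 with DESeq2, 200 with the cell line as replicate block and 1666 (7 of the 40) with DESeq2 and the block. With the block and 1 line left out, also added later, 6 to 738 genes and 0 to 1 of the 40 passed, 6 of all genes without HCT8, and the 1 without HCT116. Directions turned for LEF1 (3.57) and LGR5 (2.02) without untreated DLD1, LGR5 (0.0024) and NOTUM (−0.16) without HCT116 under hypoxia, and LGR6 (−0.54 without DLD1, −0.12 without HCT8, both with the block). Over libraries left out LEF1 ran from −7.09 to 3.57, LGR5 from −3.64 to 2.02, NOTUM from −0.16 to 2.10 and LGR6 from −0.54 to 1.89. With edgeR the pairing by line changed no call in the 40 genes. The interaction went from 0 to 7 with DESeq2 and to 196 (1 of the 40) with a term for each line.

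CRC against normal lines went from 0 to 143 genes (2 of the 40) with DESeq2. PROM1 turned to 6.78 without NCM460 and to 2.17 with the replicate number as a block, and CD44 to 0.0059 without HCT8. Over libraries left out PROM1 ran from −3.55 to 6.78 and CD44 from −4.18 to 0.0059. HIEC6 against CRC lines went from 0 to 4206 (13 of the 40) with DESeq2, 42 with the looser filter and 127 (1 of the 40) with all CRC libraries. With library totals the median of all genes moved from 0.06 to −0.06 (hypoxia), −0.00 to 0.17 (CRC against normal), −0.19 to −0.44 (HIEC6) and −0.09 to −0.41 (interaction). The cause of these changes was not tested.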
